A study of Mus musculus with 6 samples.

Results

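Interferon-inducible genes were described in 3 mouse osteosarcoma cell lines, each line on its own, against 3 cultures of the mouse stromal line KUSA4b10 that had been differentiated to osteoblasts. The set was a list of 37 genes chosen by name: interferon receptors, the transcription factors that carry the signal, sensors of foreign nucleic acid, antiviral effectors and interferon-induced GTPases. Of the 37 genes, 32 had a probe set annotated to that gene alone and were measured, out of 19938 genes tested on the arrays. Isg15, Gbp2, Igtp and Ifi204 were represented only by probe sets that are annotated to a second gene as well (Gm9706, Gbp2b, Irgm2 and Ifi211), so no value is given for them, and Ifi44 was not analysed here. Where a gene had several probe sets, the brightest over all 6 arrays was used, which applied to Irf1.

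Each sample was hybridised to 1 Affymetrix Mouse Gene ST array, and all values are log2 expression, so that a difference of 1 is a 2-fold change. The lines OS_493H, OS_494H and OS_716H were grown from primary tumours of C57Bl6 mice that were Osx-Cre+, Rb fl/fl and p53 fl/fl, in which Cre is driven by the Osterix promoter of the osteoblast lineage. By the labels, OS_493H came from the hip of a female at an age given as 188 and OS_494H from the hip of a male at 190. OS_716H is labelled as from the tibia of a female at 226, and no unit is stated for age. The controls were KUSA4b10 cells, also labelled C57Bl6, kept for 21 days after confluence with 50 ug/ml ascorbate and numbered here as cultures 1 to 3. The labels name no interferon, virus or other immune stimulus for any sample. Each line is 1 tumour and 1 array, and the 3 cultures are 1 cell line whose independence the labels do not settle, so the p-values measure the spread between these samples only. The ascorbate treatment is described for KUSA4b10 alone, so whatever sets the lines apart from the cultures may be the tumour, the growth or the differentiation, which cannot be told apart here.

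Rb1, a gene floxed in the tumour model, was at 9.26, 9.70 and 9.87 in OS_493H, OS_494H and OS_716H and at 10.68, 10.66 and 10.66 in cultures 1 to 3. The array labelled OS_716H, a female, carried the Y-linked transcript Eif2s3y at 10.11, beside 9.96 in the male line OS_494H, 4.08 in OS_493H and 4.10 to 4.14 in the cultures. Uty and Kdm5d, also Y-linked, were at 10.06 and 8.92 in OS_716H and at 9.90 and 8.85 in OS_494H. The X-linked transcript Xist was at 12.62 in OS_493H, 5.31 in OS_494H, 5.50 in OS_716H and 5.57 to 5.79 in the cultures. The values of OS_716H are at odds with its label as female, and whether its other labels hold was not tested. All 6 arrays expressed the osteoblast matrix gene Col1a1 (12.81 to 13.77), whereas the bone sialoprotein gene Ibsp was at 6.40 to 8.20 in the lines and 12.91 to 13.67 in the cultures. Of 11 measured leucocyte markers, 9 were below the median of all array values (7.53) on every array, Ptprc (6.06 to 6.31) and Adgre1 (5.57 to 5.64) among them. The others were Cd68 (7.92 to 8.37) and Cd14 (7.36 to 7.65 in the cultures and 7.84 to 8.11 in the lines). Cd14 rose by 0.53 (limma adjusted p = 0.0163), as 1 of the 11, beside 13.2% of all genes, and none fell, beside 11.4%. The mean over the 11 was 6.61 to 6.76 on each array. Of 7 measured osteoblast markers 2 fell, Ibsp and the parathyroid hormone receptor gene Pth1r, beside 11.4% of all genes. The mean over the 7 was 10.40, 10.42 and 11.48 in OS_493H, OS_494H and OS_716H against 12.09, 12.85 and 11.91 in cultures 1 to 3. Sp7, Alpl and Pth1r were over 2-fold lower in OS_493H and OS_494H and not in OS_716H. Of all genes, 3.14% were over 2-fold lower in OS_493H, 3.87% in OS_494H and 3.63% in OS_716H. Markers of fat cells and of dividing cells differed as well. The mean over 9 adipocyte markers was 7.53 to 8.03 in the lines and 10.67 to 11.33 in the cultures, and that over 9 proliferation markers was 11.39 to 11.88 against 8.78 to 9.96. Their part in the results below was not tested.

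Interferons are secreted proteins that cells release on sensing viral RNA or DNA. Type I interferons bind the receptor pair Ifnar1 and Ifnar2, and Janus kinases then activate Stat2, which acts with Irf9 in the complex ISGF3. ISGF3 binds the interferon-stimulated response element (ISRE) in front of its target genes, and Irf7, itself a target, amplifies the response. Interferon gamma acts through Ifngr1 and Ifngr2 on genes with a gamma-activated site (GAS), and induces Irf1 and the immunity-related GTPases. In bone, interferon signalling is known for restraining osteoclast formation.

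The ISRE is shown for 7 members that held the core given below and were chosen after their values were seen. Ifit1, Ifit3, Trim30a, Bst2 and Stat2 were over 2-fold below the culture mean in OS_716H. Gbp3 and Rsad2 were over 2-fold above it in OS_493H. Members without a core, such as Irf7 and Oasl2, could not be shown. RefSeq promoters (build GRCm38.p6, 250 bases before to 50 bases after a gene start) were given for 28 of the 37 members, of which 24 were measured. Each was searched on both strands for the ISRE core GAAANNGAAA and for the GAS motif TTCNNNGAA, and overlapping matches were counted. In the 60-base stretches below, 5′ to 3′ on the strand of the gene, the capitals mark ISRE cores. All of these stretches end before the gene start.

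Ifit1, chr19:34640770-34640829, plus strand: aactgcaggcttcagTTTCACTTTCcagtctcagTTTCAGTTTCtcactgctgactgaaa

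Ifit3, chr19:34583365-34583424, plus strand: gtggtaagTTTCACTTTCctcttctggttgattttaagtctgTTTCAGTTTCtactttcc

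Trim30a, chr7:104465195-104465254, minus strand: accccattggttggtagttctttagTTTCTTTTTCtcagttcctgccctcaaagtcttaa

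Bst2, chr8:71537565-71537624, minus strand: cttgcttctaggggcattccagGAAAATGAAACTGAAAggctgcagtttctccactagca

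Stat2, chr10:128270251-128270310, plus strand: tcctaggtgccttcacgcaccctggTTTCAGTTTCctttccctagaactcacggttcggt

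Gbp3, chr3:142559977-142560036, plus strand: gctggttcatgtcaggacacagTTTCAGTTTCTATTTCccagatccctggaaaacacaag

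Rsad2, chr12:26456538-26456597, minus strand: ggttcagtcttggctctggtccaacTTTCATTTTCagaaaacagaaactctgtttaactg

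Ifit1 and Ifit3 each held 2 separate cores, and those of Bst2 and Gbp3 overlapped. An ISRE core was present in the promoters of 16 of the 28 members, that is in 17 of 34 promoters (50.0%), against 3.44% of all 32851 promoters in the table. A GAS motif was present in 8 of the 28 members, or 23.5% of their promoters, against 8.30% of all promoters. By role, 5 of 7 measured sensors with a promoter held an ISRE core, as did 5 of 8 effectors, both measured GTPases, 1 of 4 transcription factors and none of the 3 receptors. A match describes letters in this window and not a bound site.

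The lines differed from each other more than the groups did. OS_493H held most interferon-inducible genes at or above the level of the cultures, OS_494H was lower, and OS_716H was lower again. For 25 of the 32 measured members the order of the lines was OS_493H, then OS_494H, then OS_716H, an order shown by 10.2% of all genes. OS_493H was the highest line for 29 members (90.6%, against 21.7% of all genes), and OS_716H was the lowest for 26 (81.2%, against 32.8%). The mean over the 32 members stood at 10.09 for OS_493H, 8.89 for OS_494H and 8.37 for OS_716H, beside 9.92, 9.57 and 10.05 in cultures 1, 2 and 3. With 1 array per line, none of these differences between lines could be tested.

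**Figure D1:**
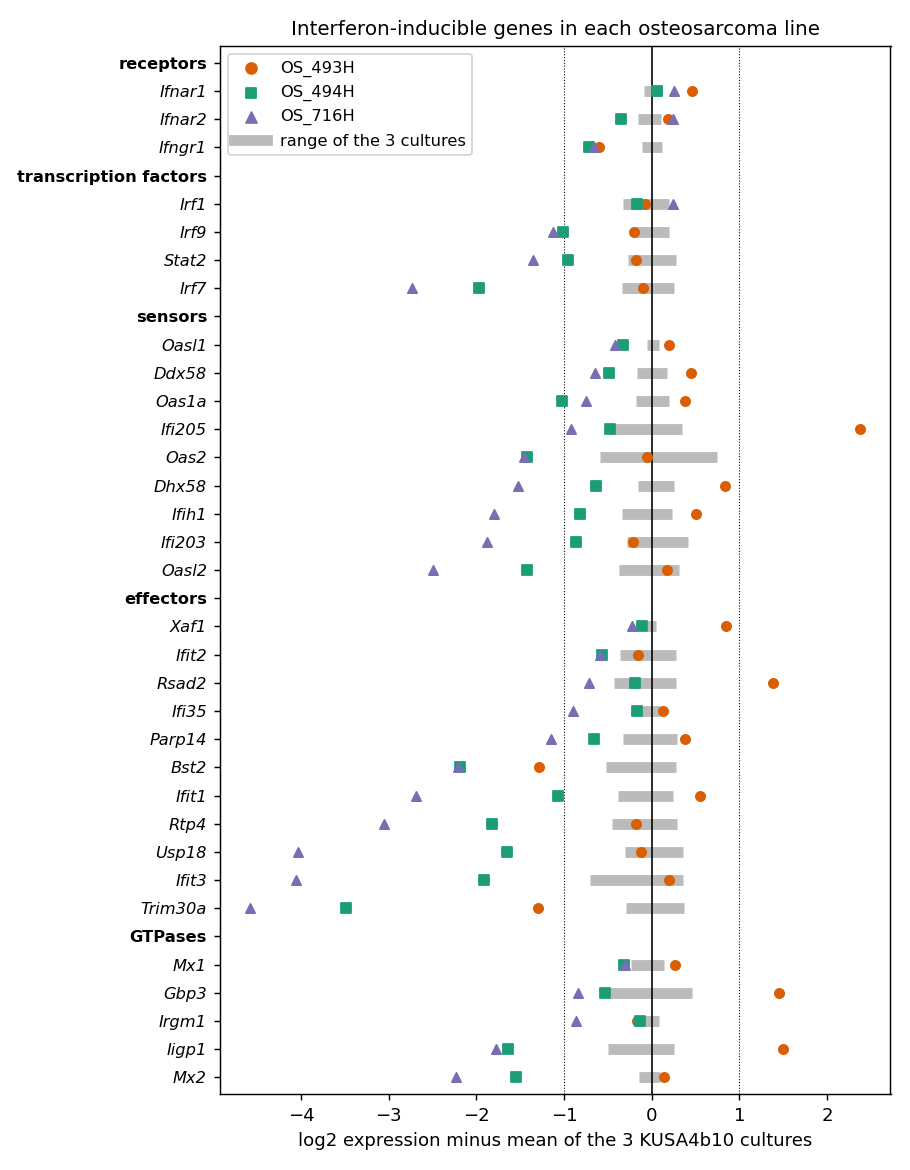
Log2 expression of the 32 measured interferon-inducible genes in each osteosarcoma line minus the mean of the 3 KUSA4b10 cultures, by role; grey bars span the 3 cultures and dotted lines mark 2-fold. OS_493H lies near or above the cultures for most genes, while OS_716H lies below all 3 cultures for 29 of the 32, beside 35.5% of all genes.

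The group difference was therefore tested against a wide spread among the lines. With all 6 arrays, limma called 3 of the 32 members lower in the osteosarcoma lines and none higher, at a threshold of 0.05 on p-values adjusted by Benjamini-Hochberg across every gene tested. The same test called 11.4% of all genes lower and 13.2% higher, so the members' share is no higher than the background. At an unadjusted p under 0.05, limma had 7 members lower and none higher, beside 17.2% and 18.6% of all genes. The difference was below 0 for 26 of the 32 (81.2%, against 55.0% of all genes), with a median of -0.56 against -0.02 over all genes. All 3 lines lay below all 3 cultures for 4 members, Ifngr1, Irf9, Bst2 and Trim30a (21.0% of all genes), and above them for none (20.5%).

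When each array was left out in turn, the count of members that fell stayed at 2 or 3 for 5 of the arrays, and none rose. Among all genes these fits called 6.07% lower and 7.69% higher without culture 1, 8.99% and 10.5% without culture 2, and 6.77% and 8.08% without culture 3. They called 11.6% and 13.7% without OS_494H, and 10.7% and 14.0% without OS_716H. Without OS_493H it was 19 of 32, beside 8.72% of all genes in that fit, and none rose, beside 10.7%. By role, the 19 were 1 of 3 receptors, 3 of 4 transcription factors, 6 of 9 sensors, 7 of 11 effectors and 2 of 5 GTPases. The fit without OS_493H compares 2 lines with the 3 cultures and is 1 of 6 such fits. It is given because the count depends on that array. OS_493H was the highest line for 29 of the 32 members, so leaving it out lowers the line mean of those members by construction. The p-values of that fit quoted below are therefore no support for a fall. None of the members for which one is quoted passed when any other single array was left out.

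**Figure D2:**
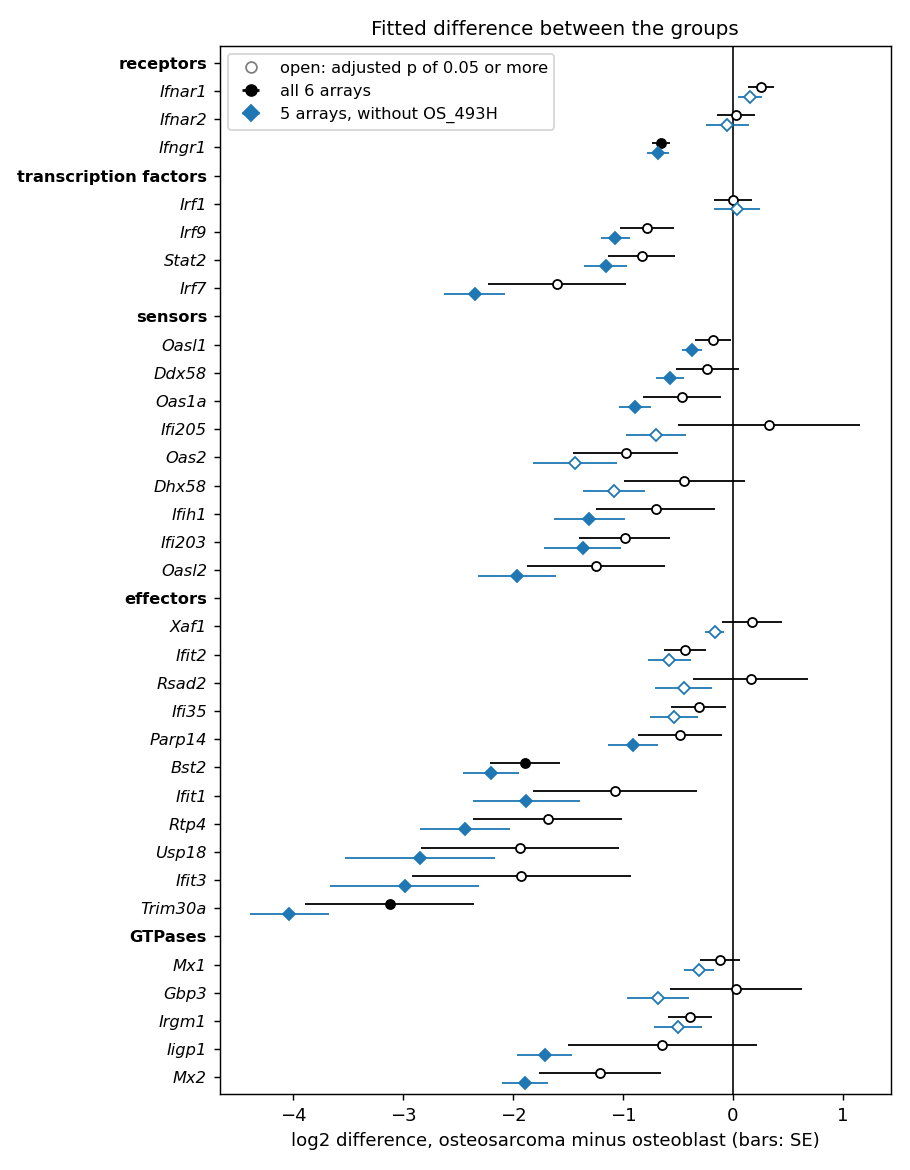
Fitted log2 difference between osteosarcoma lines and cultures for each measured member, with bars for the SE; black circles use all 6 arrays and blue diamonds leave out OS_493H. Filled symbols pass an adjusted p of 0.05, which holds for 3 members with all arrays and 19 without OS_493H.

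The receptors showed little of the pattern among the lines. Ifngr1, the ligand-binding chain of the interferon gamma receptor, was at 11.20, 10.97 and 11.08 in cultures 1 to 3 and at 10.48, 10.37 and 10.43 in OS_493H, OS_494H and OS_716H. The 3 lines were close together, and all lay below all cultures. It fell by 0.66 ± 0.09 (SE, limma adjusted p = 0.00284), and was called in every one of the 13 alternative fits (adjusted p = 0.00147 to 0.0177). Ifnar1, a chain of the type I receptor, was at 10.65, 10.59 and 10.79 in the cultures and 11.14, 10.73 and 10.94 in the lines. Its difference of 0.26 did not pass (adjusted p = 0.178, 95% interval -0.03 to 0.54). Ifnar2, the other chain, was at 11.65, 11.39 and 11.60 in the cultures and 11.74, 11.20 and 11.79 in the lines, which overlapped (0.03, 95% interval -0.38 to 0.44, adjusted p = 0.924).

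Among the transcription factors, Irf7 separated the lines most. It was at 9.59, 9.18 and 9.77 in the cultures, at 9.42 in OS_493H, at 7.55 in OS_494H and at 6.78 in OS_716H. OS_493H lay within the range of the cultures, and the other lines were 3.91-fold and 6.67-fold below the culture mean. The group difference of -1.60 ± 0.63 (SE) did not pass (adjusted p = 0.119), and without OS_493H it was -2.35 ± 0.28 (adjusted p = 0.00578). With any other single array left out, the limma adjusted p was 0.180 to 0.279.

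Stat2 and Irf9 of ISGF3 followed the same order with smaller differences. Stat2, the subunit that gives ISGF3 its activating domain, was at 10.65, 10.40 and 10.93 in the cultures and at 10.49, 9.70 and 9.30 in OS_493H, OS_494H and OS_716H (-0.83, adjusted p = 0.0985, and 0.0148 without OS_493H). Irf9, the DNA-binding subunit, was at 10.45, 10.27 and 10.66 in the cultures and at 10.25, 9.45 and 9.33 in the lines. All lines lay below all cultures, but OS_493H by only a small margin, and the difference of -0.78 ± 0.25 (SE) did not pass (adjusted p = 0.0661, and 0.00668 without OS_493H). Irf1, a transcription factor that interferon gamma induces, showed no such order: it was at 10.09, 9.57 and 10.03 in the cultures and 9.82, 9.73 and 10.15 in the lines (95% interval of the difference -0.41 to 0.41, adjusted p = 1.00). These values are from the brighter of its 2 probe sets. With the mean of both, the difference was -0.19 and did not pass either (limma adjusted p = 0.263).

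None of the 9 measured sensors passed with all arrays, at an adjusted or an unadjusted p under 0.05 in limma. The shares of all genes were 11.4% lower and 13.2% higher at an adjusted p, and 17.2% and 18.6% at an unadjusted p. Every sensor was lower in OS_494H and in OS_716H than the culture mean, and 7 of 9 were higher in OS_493H. Of all genes, 52.6% were lower in OS_494H, 49.5% lower in OS_716H and 41.6% higher in OS_493H. Ifih1, a cytosolic helicase that senses long double-stranded RNA, was at 10.15, 9.70 and 10.27 in the cultures, 10.55 in OS_493H, 9.22 in OS_494H and 8.24 in OS_716H, a 4.94-fold span between the outer lines. Dhx58, a helicase that regulates the other RNA helicases, was at 9.26, 9.21 and 9.63 in the cultures and at 10.20, 8.73 and 7.84 in the lines. Ddx58, which encodes the sensor RIG-I, had the narrowest range of the 3 helicases, with 11.30, 11.15 and 11.50 in the cultures and 11.76, 10.83 and 10.67 in the lines. For all 3 helicases OS_493H lay above every culture and the other lines lay below every culture.

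The oligoadenylate synthetase family makes the second messenger that activates the ribonuclease RNase L. Oasl2, a family member with ubiquitin-like domains, was at 11.59, 11.15 and 11.83 in the cultures and at 11.70, 10.09 and 9.03 in OS_493H, OS_494H and OS_716H. OS_716H was 5.63-fold below the culture mean, and the group difference was -1.25 ± 0.63 (SE, adjusted p = 0.212, and 0.0175 without OS_493H). Oas2 was at 8.57, 8.14 and 9.47 in the cultures and 8.68, 7.31 and 7.27 in the lines. Here the cultures themselves spanned more than 1 log2 unit. Oas1a was at 8.93 in OS_493H, 7.52 in OS_494H and 7.79 in OS_716H against a culture mean of 8.55 ± 0.19 (SD, n = 3), and was the only sensor that was lower in OS_494H than in OS_716H. Oasl1 differed least among the sensors of this family, at 8.46, 7.94 and 7.84 in the lines against 8.26 ± 0.07 (SD, n = 3).

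The p200 genes encode nuclear and cytosolic proteins that bind DNA. They are near copies of each other, so their probe sets may share signal. Ifi203 was at 11.19, 11.04 and 11.73 in the cultures and 11.10, 10.46 and 9.44 in the lines. Ifi205 was the member that stood furthest above the cultures in OS_493H. It was at 7.28, 6.67 and 7.50 in the cultures and at 9.53 in OS_493H, 5.20-fold above the culture mean, whereas OS_494H (6.68) was within the range of the cultures and OS_716H (6.23) was below it.

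The effectors spanned the widest range of differences. Of the 11 measured, 2 fell with all arrays and none rose, beside 11.4% and 13.2% of all genes. OS_716H lay below all cultures for all 11, as it did for 35.5% of all genes. Trim30a, an ubiquitin ligase gene of the TRIM family, was at 11.27, 11.06 and 11.71 in the cultures, 10.05 in OS_493H, 7.86 in OS_494H and 6.76 in OS_716H. All lines were below all cultures, by 2.45-fold, 11.2-fold and 24.0-fold of the culture mean. It fell by 3.12 ± 0.77 (SE, limma adjusted p = 0.0278). The call was lost without culture 1 (adjusted p = 0.0888), culture 2 (0.0668), culture 3 (0.0988) or OS_494H (0.0585). Trim30a belongs to a cluster of similar genes, so its probe set may also read its neighbours.

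Bst2, a membrane protein that tethers budding virus particles to the cell surface, was at 10.64, 9.85 and 10.60 in the cultures and at 9.08, 8.17 and 8.15 in OS_493H, OS_494H and OS_716H. It fell by 1.90 ± 0.32 (SE, adjusted p = 0.00685), was called in every one of the 13 alternative fits (adjusted p = 0.00355 to 0.0350), and was, with Trim30a, a member that lay over 2-fold below the cultures in OS_493H too.

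The Ifit proteins bind viral RNA, and their genes lie side by side. Ifit3 was at 12.10, 11.06 and 12.11 in the cultures and at 11.95 in OS_493H, 9.84 in OS_494H and 7.69 in OS_716H. OS_493H lay within the range of the cultures, and OS_716H was 16.7-fold below their mean. The group difference of -1.93 ± 1.00 (SE) did not pass (adjusted p = 0.225, and 0.0341 without OS_493H). Ifit1 was at 11.27, 10.76 and 11.38 in the cultures and 11.68, 10.07 and 8.45 in the lines, with OS_493H above every culture. Ifit2 differed far less, at 10.13, 9.68 and 10.31 in the cultures and 9.89, 9.48 and 9.45 in the lines.

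Usp18, the protease that removes Isg15 from proteins and blocks signalling at Ifnar2, resembled Ifit3. It was at 11.42, 11.17 and 11.83 in the cultures and at 11.35, 9.83 and 7.43 in the lines, so that OS_716H was 16.5-fold below the culture mean (group adjusted p = 0.181, and 0.0401 without OS_493H). Rtp4, a chaperone of membrane receptors, was at 10.89, 10.27 and 11.02 in the cultures and at 10.55, 8.90 and 7.67 in the lines. Parp14, an ADP-ribosyltransferase, was at 9.79, 8.75 and 8.26 in the lines against 9.41 ± 0.31 (SD, n = 3) in the cultures. Each of these genes again had OS_493H near the cultures and OS_716H lowest.

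A further 3 effectors differed little or were higher in OS_493H. Rsad2, the radical enzyme viperin that makes an antiviral nucleotide, was at 7.68, 6.98 and 7.56 in the cultures, 8.79 in OS_493H, 7.22 in OS_494H and 6.69 in OS_716H. OS_493H was 2.62-fold above the culture mean. Xaf1, a partner of the apoptosis inhibitor XIAP, was at 10.45 in OS_493H against 9.60 ± 0.05 (SD, n = 3) in the cultures, with 9.49 and 9.38 in the other lines. Ifi35 was at 10.22, 9.91 and 9.18 in the lines against 10.08 ± 0.11 (SD, n = 3).

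The GTPases split by line rather than by group, and none of the 5 measured passed with all arrays (limma, none at an unadjusted p under 0.05). Among all genes 11.4% were called lower and 13.2% higher, and 17.2% and 18.6% at an unadjusted p. Iigp1, an immunity-related GTPase that disrupts the vacuoles of parasites, was at 8.83, 8.07 and 8.83 in the cultures, 10.08 in OS_493H, 6.93 in OS_494H and 6.79 in OS_716H. OS_493H was 2.83-fold above the culture mean and the others were 3.12-fold and 3.44-fold below it. The group difference was -0.64 ± 0.86 (SE, adjusted p = 0.661, and 0.00997 without OS_493H). Gbp3, a guanylate-binding protein gene, was at 8.96, 8.02 and 8.52 in the cultures and 9.95, 7.97 and 7.66 in the lines, so OS_493H was again above every culture.

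Mx2, a dynamin-like antiviral GTPase, was at 8.04, 7.79 and 8.00 in the cultures and 8.09, 6.39 and 5.72 in the lines. OS_494H and OS_716H were 2.93-fold and 4.68-fold below the culture mean. Its relative Mx1 was below the median of all array values on every array (5.58 to 6.17), and a deletion in this gene is known in most inbred mouse strains, C57BL/6 among them. Irgm1, a regulator of the other immunity-related GTPases, was at 10.58, 10.81 and 10.80 in the cultures and 10.56, 10.59 and 9.87 in the lines, lowest in OS_716H.

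**Figure D3:**
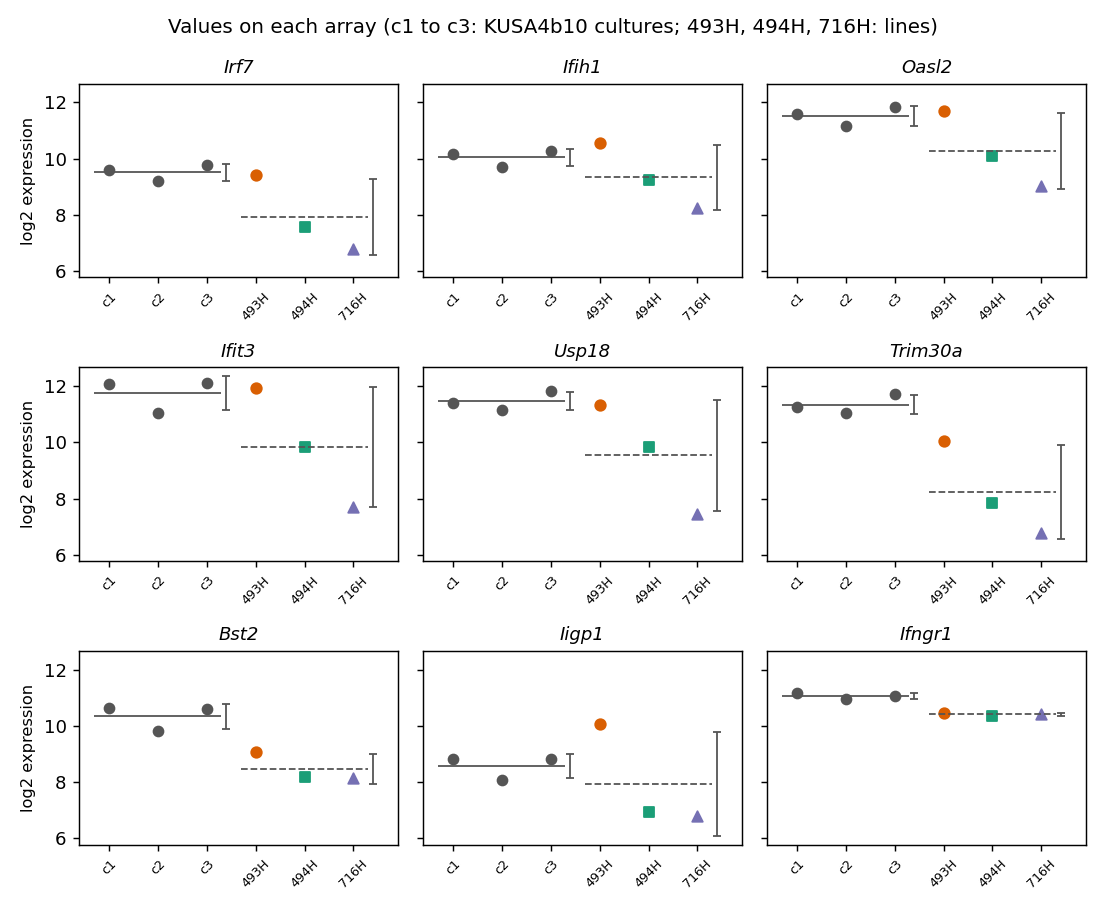
Log2 expression on each of the 6 arrays for 9 members; points are arrays, lines are group means and bars beside them the SD (n = 3). Irf7, Ifih1, Oasl2, Ifit3 and Usp18 step down from OS_493H to OS_716H, Iigp1 is above the cultures in OS_493H alone, and Ifngr1 is equally low in all 3 lines.

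Taken line by line, a gene was counted where the line differed from the culture mean by at least 2-fold and lay outside the range of the 3 cultures. In OS_493H, 4 of the 32 members were higher (Ifi205, Iigp1, Gbp3 and Rsad2), beside 5.18% of all genes, and 2 were lower (Trim30a and Bst2), beside 3.14%. The median difference of the members in OS_493H was 0.19, against -0.05 over all genes. OS_493H lay within the range of the cultures for 10 members, above it for 17 and below it for 5 (31.2%, 53.1% and 15.6%, beside 23.9%, 31.9% and 44.2% of all genes).

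In OS_494H, 13 members were lower, beside 3.87% of all genes, and none was higher, beside 5.27%. They were 2 transcription factors, 3 sensors, 6 effectors and 2 GTPases, from Trim30a at -3.49 and Bst2 at -2.19 to Irf9 at -1.01. The median of the members was -0.77, against -0.02 over all genes. All members except Ifnar1 were below the culture mean (96.9%, beside 52.6% of all genes).

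In OS_716H, 17 members were lower, beside 3.63% of all genes, and none was higher, beside 4.72%. They were 3 transcription factors, 5 sensors, 7 effectors and 2 GTPases. The median was -1.14, against 0.00 over all genes, and 4 effectors, Trim30a, Ifit3, Usp18 and Rtp4, were more than 3 log2 units below the culture mean. Ifnar1, Ifnar2 and Irf1 were the members above it. The 2 lines with low values, OS_494H and OS_716H, are also those with the Y-linked transcripts, whose part was not tested.

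**Figure D4:**
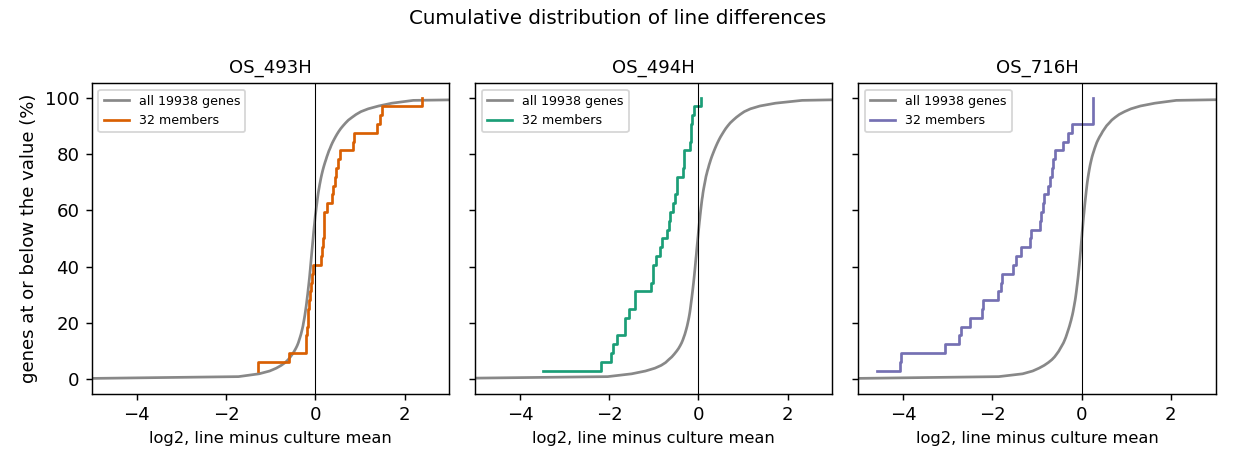
Cumulative share of genes by log2 difference between each line and the culture mean, for all 19938 genes (grey) and the 32 measured members (colour). The members lie to the left of all genes in OS_494H and OS_716H, with medians of -0.77 and -1.14, and slightly to the right in OS_493H, with a median of 0.19.

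Within the promoters, the 13 measured members that held an ISRE core had a median difference of -1.36 in OS_716H, with a range of -4.58 to -0.65, and 7 of them were among the genes over 2-fold lower. The 11 without one had a median of -0.59, with a range of -2.74 to 0.26, and 3 were over 2-fold lower. Of all genes, 3.63% were over 2-fold lower in OS_716H. The 11 include all 3 receptors. Usp18, Rtp4, Mx2, Iigp1, Oas2, Dhx58 and Parp14, also over 2-fold lower in OS_716H, had no promoter given and are in neither group. Whether the core plays a part was not tested. In OS_493H the medians were 0.38 and 0.13. Irf7 and Oasl2, both far lower in OS_716H, were among those without a core in this window.

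The cultures also differed among themselves in these genes. Culture 2 was the lowest culture for 30 of the 32 members, against 38.4% of all genes, and the exceptions were Irgm1 and Mx1. The median range over the 3 cultures was 0.58 for the members and 0.18 over all genes, and over the 3 lines 1.47 and 0.25. Culture 2 also had a higher mean over the proliferation markers (9.96, against 8.93 and 8.78 in cultures 1 and 3) and over the osteoblast markers. Its mean over the adipocyte markers was lower (10.67, against 11.33 and 10.88 in cultures 1 and 3). Whether these differences play a part in the lower values was not tested.

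Other genes of the pathway were taken from 4 lists, with 89 measured of 101. Interferon genes themselves were dim: 7 of 8 measured were below the median of all array values on every array. Ifnb1, the interferon of fibroblasts, was between 5.65 and 5.89 on all 6 arrays, and Ifng between 6.94 and 7.24. Of the 8 ligands, 1 fell and none rose, beside 11.4% and 13.2% of all genes. It was Ifnk (-0.31, limma adjusted p = 0.0326), a call that was kept without OS_716H and lost when any of the other 5 arrays was left out. Ifnk was dim, at 5.24, 5.44 and 5.35 in the cultures and 5.01, 5.00 and 5.09 in the lines, all below the median of all array values (7.53). Of 9 measured receptors, kinases and signalling genes, 1 rose and none fell, beside 13.2% and 11.4% of all genes. The 1 that rose was the phosphatase Ptpn2 that acts on Janus kinases and Stat proteins (0.59 ± 0.10 SE, limma adjusted p = 0.00693). At an unadjusted p under 0.05 in limma, 3 were higher and 1 lower, beside 18.6% and 17.2%. Without OS_494H, 5 of these 9 rose and 1 fell, beside 13.7% and 11.6% of all genes in that fit.

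Of 16 measured genes for upstream sensing, 4 rose and 3 fell, beside 13.2% and 11.4% of all genes. The counts were 2 and 1 without culture 1 or culture 3, and 3 and 1 without culture 2. They were 4 and 4 without OS_493H, 3 and 3 without OS_494H, and 4 and 2 without OS_716H. Among all genes 7.69% rose and 6.07% fell without culture 1, 10.5% and 8.99% without culture 2, and 8.08% and 6.77% without culture 3. The shares were 10.7% and 8.72% without OS_493H, 13.7% and 11.6% without OS_494H, and 14.0% and 10.7% without OS_716H. Sting1, the adaptor of cytosolic DNA sensing, was at 9.39, 9.34 and 9.66 in the cultures and at 11.18, 10.56 and 11.18 in the lines, and rose 2.85-fold (limma adjusted p = 0.00248). Its enzyme partner Cgas, the kinase Ikbke and the transcription factor Irf5 rose by smaller amounts (0.49, 0.47 and 0.62). Those that fell were the receptor Tlr4 (-0.77), the transcription factor Irf3 (-0.75), which the RNA and DNA sensors activate, and the adaptor Mavs (-0.43), through which Ddx58 and Ifih1 signal. The order OS_493H, OS_494H, OS_716H held for 6 of these 16 genes (37.5%), beside 10.2% of all genes and 78.1% of the members.

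A list of further interferon-induced genes held 56 measured genes, of which 6 rose and 6 fell, shares no higher than the 13.2% and 11.4% of all genes. OS_493H was the highest line for 46 of them (82.1%), and 34 (60.7%) had the order OS_493H, OS_494H, OS_716H, beside 21.7% and 10.2% of all genes. In OS_716H, 13 were over 2-fold lower and 2 higher, beside 3.63% and 4.72% of all genes. In OS_494H, 6 were lower and 4 higher, beside 3.87% and 5.27%. In OS_493H, 2 were lower and 10 higher, beside 3.14% and 5.18%. The count that fell was 14 without OS_493H, 3 without culture 1 or culture 3, and 4 without culture 2. Of all genes, 8.72% fell without OS_493H, 6.07% without culture 1, 6.77% without culture 3 and 8.99% without culture 2. The guanylate-binding protein genes Gbp8 and Gbp4 fell 9.08-fold and 7.09-fold, and were low in all 3 lines: Gbp4 was at 8.74, 8.73 and 8.92 in the cultures and 6.50, 5.73 and 5.68 in the lines. Gbp9 and the secreted glycoprotein gene Lgals3bp fell by 0.99 and 1.20 on the log2 scale. Those with the largest rises were Serping1, the C1 inhibitor of complement (3.23), the RNA helicase Mov10 (1.24), the chemokine Cxcl10 (1.22) and Ube2l6, the conjugating enzyme for Isg15 (0.93).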

How the data were processed

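RNA from 3 osteosarcoma lines and 3 KUSA4b10 cultures was measured on 6 Affymetrix Mouse Gene ST arrays. The deposited values are log2 expression per probe set made with RMA on mouse build mm9, as the submitters' processing notes name them, and the notes used here give no software version. This method brings all arrays to 1 distribution, so a shift of most genes would not be seen (array medians 7.45 to 7.58). The number of arrays limits the precision.

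Of 35556 probe sets, 21789 were annotated to 1 gene symbol, 1621 to several and 12146 were not listed. Each gene was represented by its brightest probe set (mean of the 6 arrays), which gave 19938 genes, and no filter on dim genes was applied. The groups were compared with limma 3.58.1 in R 4.3.3 (lmFit and eBayes, two-sided, Benjamini-Hochberg over all genes, threshold 0.05), which was tested on simulated data. A line was set against the cultures without a test, by a difference of at least 1 log2 unit outside the culture range. Alternatives covered normalization, a filter on dim genes, probe set choice, moderation, weights, thresholds and leaving out each array. All measured members were named; from each pathway list, every called gene where 6 or fewer were called, otherwise up to 4 with the largest rise and 4 with the largest fall, plus Ifnb1 and Ifng. Genes given in the check of the samples illustrate their marker list and were chosen after their values were seen. The members and lists were chosen with earlier results of these data known. Promoters were from RefSeq (GRCm38.p6), whose coordinates were not joined to the arrays.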

Additional observations from a re-analysis of the deposited data

How the results depend on the processing

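The count of members that fell was 2 to 19 when each array was left out in turn, and 19 was reached only without OS_493H. No member rose in any alternative, where 0 to 0 were called. The count was 3 under quantile normalization, median centring, the filter on dim genes (30 members left), the mean of probe sets, the intensity trend, robust moderation and array weights, and 2 at an adjusted p under 0.01 or with a difference of at least 1 log2 unit. Leaving out OS_493H lowers, by construction, the line mean of the 29 members for which it is the highest line. What sets OS_493H apart from the other lines was not tested. Counted per line, OS_716H had 26 members lower at a threshold of 0.58 log2 units in place of 17. Without each culture in turn, OS_494H had 10 to 15 lower and OS_716H 17 to 19. No paired analysis was possible because only the cultures carry replicate numbers in the labels. With 1 array per line, a difference between lines cannot be set against its own error.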

Other observations

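Among the further interferon-induced genes, 3 chosen after their values were seen showed the same order of the lines. The nuclear body gene Sp100 was at 8.41, 8.23 and 9.11 in cultures 1 to 3 and at 10.55, 8.44 and 6.71 in OS_493H, OS_494H and OS_716H. The RNA helicase gene Ddx60 was at 8.62, 8.02 and 8.52 in the cultures and at 8.69, 7.46 and 5.75 in the lines. Phf11d was at 9.96, 9.21 and 10.20 in the cultures and at 10.08, 7.95 and 6.94 in the lines. None of the 3 passed the group test in limma (adjusted p = 0.992, 0.317 and 0.223).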
